A study of Mus musculus with 4 samples.

Results

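This report describes 9 genes of serine synthesis, mitochondrial one-carbon metabolism and the Atf4 stress response in mouse liver dendritic cells: Phgdh, Psat1, Psph, Shmt2, Mthfd2, Atf4, Asns, Chac1 and Trib3. They were taken by name, 9 of 32285 genes in the expression matrices, together with the 33 accessible regions, of 127216 found in both libraries, that lay within 10 kb of their start sites. The set was chosen by the RNA level of Psat1, which had stood out in a cluster of dendritic cell precursor-like (preDC-like) nuclei of these same data. Its level there is therefore given here as a description that supports nothing by itself.

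The study fed C57BL/6J mice, 6 to 12 weeks old, chow with 0.1% of the bile duct toxicant DDC, in full 3,5-diethoxycarbonyl-1,4-dihydrocollidine, for 0 days (D0, the control) or 5 days (D5). Live liver cells positive for CD45 and CD11c and negative for CD64 were sorted, their nuclei were extracted, and RNA and open chromatin were read from the same nuclei (10x Multiome). The 4 samples are the RNA and the chromatin layer of 2 libraries, 1 for each day. How many animals each library pooled is not given in the sources used here, and a day and its library cannot be told apart.

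With 1 library a day there was no test between days or states. Levels are CPM, the unique molecular identifiers (UMIs) of a gene per 1000000 UMIs of all genes in a group of nuclei, with an exact Poisson 95% interval. Ratios are log2 ratios of CPM, with an exact conditional binomial 95% interval. Both intervals cover counting error only, and neither says how far animals would differ. A gene was called higher or lower in a comparison at 1.5-fold or more, among genes with at least 20 UMIs in both groups together, and the share of all such genes that was called the same way is given beside each count of members.

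The 16260 called barcodes at D0 held 44496348 UMIs and the 27873 at D5 held 94374499, and 10975 and 19859 nuclei were kept. The libraries had 591 barcode strings in common, about which no more is known than that the strings match. Clusters were named from cell type markers, with the members, their pathway genes and cell cycle genes left out of the clustering. Of 17 clusters, 8 stayed unnamed, and 22688 of 30834 nuclei were in a named one. The cDC2-like nuclei (conventional dendritic cells of type 2), 2060 at D0 and 7064 at D5, comprised preDC-like nuclei (211 and 1416), Clec10a+ nuclei (1129 and 3228) and a cluster led by Sirpb1a (720 and 2420). The other named classes were cDC1-like (1759 and 3118), pDC-like for plasmacytoid dendritic cells (2321 and 2028), Ccr7+ DC-like for mature migratory dendritic cells (303 and 1069), NK cell-like (1485 and 1109), nonclassical monocyte-like (107 and 167) and neutrophil-like nuclei, the last too few (6 and 92) to describe.

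The preDC-like cluster was named from a list of 6 preDC markers, so that their higher level in it is fixed by the naming. Of these, 5 (Cd7, Ly6c2, Tcf4, Runx2 and Siglech) were higher than in the rest of the cDC2-like nuclei on both days, whereas Csf1r was lower, at 84.1 CPM against 135 at D0 and 90.2 against 145 at D5. Its leading genes were Cyp7b1, Alox5, Pi16, Ednrb and Ror1, none of which is on the preDC list. The next leading gene was Cd209d, which is on the Clec10a+ list, at 397 against 29.2 CPM at D0 and 227 against 32.4 at D5.

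Serine is made from a glycolytic intermediate in a short pathway: Phgdh oxidises 3-phosphoglycerate, Psat1 transfers an amino group to the product, and Psph removes the phosphate. Shmt2 then splits serine into glycine and a one-carbon unit in mitochondria, and Mthfd2 oxidises that folate-bound unit, which feeds purine and thymidylate synthesis in dividing and activated cells. Atf4 is the transcription factor of the integrated stress response. Its protein is made more when the initiation factor eIF2 alpha is phosphorylated, so its RNA level and its activity need not move together. It binds C/EBP-ATF response elements at genes for amino acid supply, among them Asns (asparagine synthetase), and at the stress genes Chac1, which degrades glutathione, and Trib3, a pseudokinase that restrains the response.

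The promoters of 5 members are printed because the results turn on Psat1 and Phgdh, and because Asns, Chac1 and Trib3 were the members whose windows hold the core of the C/EBP-ATF response element. Each window runs from 250 bases before to 50 bases after a start site, is taken from RefSeq on GRCm38.p6 and is written 5′ to 3′ along the gene. The element core searched was TGATGNAA, on both strands, and a match is in capitals.
Psat1, chr19:15925010-15925309, minus strand: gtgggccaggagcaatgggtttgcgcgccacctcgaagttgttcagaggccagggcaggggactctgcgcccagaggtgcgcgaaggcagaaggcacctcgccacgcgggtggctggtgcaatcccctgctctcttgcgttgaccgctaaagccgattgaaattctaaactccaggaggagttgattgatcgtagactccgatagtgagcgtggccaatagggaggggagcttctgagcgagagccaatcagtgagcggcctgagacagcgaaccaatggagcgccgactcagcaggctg
Psat1, second start site, chr19:15924573-15924872, minus strand: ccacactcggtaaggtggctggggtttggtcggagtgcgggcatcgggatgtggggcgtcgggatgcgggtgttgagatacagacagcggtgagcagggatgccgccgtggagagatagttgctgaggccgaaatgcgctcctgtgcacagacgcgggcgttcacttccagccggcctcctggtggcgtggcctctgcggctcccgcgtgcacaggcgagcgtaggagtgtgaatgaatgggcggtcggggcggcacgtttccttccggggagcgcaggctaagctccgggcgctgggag
Phgdh, chr3:98339920-98340219, minus strand: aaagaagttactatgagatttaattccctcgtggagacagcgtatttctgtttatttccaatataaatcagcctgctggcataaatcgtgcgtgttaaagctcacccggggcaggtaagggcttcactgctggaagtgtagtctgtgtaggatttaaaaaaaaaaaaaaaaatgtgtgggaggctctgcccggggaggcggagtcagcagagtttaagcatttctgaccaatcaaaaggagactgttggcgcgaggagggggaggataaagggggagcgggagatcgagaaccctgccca
Asns, chr6:7693160-7693459, minus strand: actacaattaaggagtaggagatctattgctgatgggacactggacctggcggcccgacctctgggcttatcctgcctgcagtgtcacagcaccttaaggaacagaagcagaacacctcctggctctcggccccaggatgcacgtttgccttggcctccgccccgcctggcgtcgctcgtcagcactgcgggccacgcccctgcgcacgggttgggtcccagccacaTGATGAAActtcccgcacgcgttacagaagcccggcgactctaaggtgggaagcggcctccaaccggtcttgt
Chac1, chr2:119350992-119351291, plus strand: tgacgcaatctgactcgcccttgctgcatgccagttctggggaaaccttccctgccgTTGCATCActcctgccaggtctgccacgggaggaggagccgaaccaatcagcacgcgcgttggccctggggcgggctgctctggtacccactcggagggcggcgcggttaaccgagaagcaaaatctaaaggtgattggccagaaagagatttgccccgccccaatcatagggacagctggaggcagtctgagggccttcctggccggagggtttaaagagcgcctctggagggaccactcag
Trib3, chr2:152344011-152344310, minus strand: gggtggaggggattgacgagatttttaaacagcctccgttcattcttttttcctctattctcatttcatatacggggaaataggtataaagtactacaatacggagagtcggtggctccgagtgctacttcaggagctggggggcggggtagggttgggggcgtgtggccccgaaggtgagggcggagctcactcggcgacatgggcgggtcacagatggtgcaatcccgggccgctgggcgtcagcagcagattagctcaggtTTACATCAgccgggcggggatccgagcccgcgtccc

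All 9 members had a window, 10 windows in all, and 3 windows held the core. Among all 32851 promoters of that collection, 1304 or 3.97% held it. The match in Asns was TGATGAAA and began at base -23 from the start site, on the strand of the gene. In Chac1 it was TTGCATCA, at base -193, and in Trib3 TTACATCA, at base 14, both reading as the core on the opposite strand. In the windows of Psat1, Phgdh, Psph, Shmt2, Mthfd2 and Atf4 these letters did not occur, which says nothing about elements elsewhere or in other spellings.

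**Figure D1:**
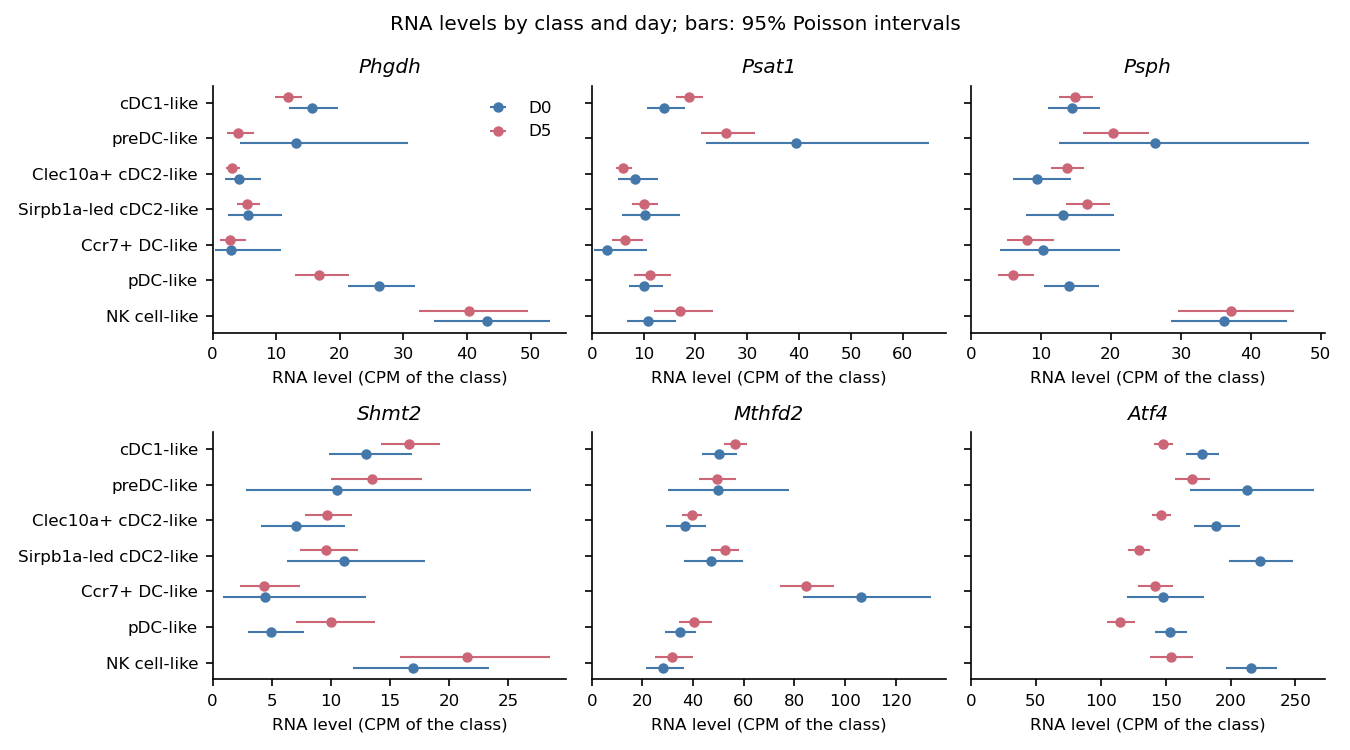
RNA levels of 6 members in CPM of the class (linear axis from 0), by class or state, with D0 in blue, D5 in red and bars for exact Poisson 95% intervals; Asns, Chac1 and Trib3 are left out because they were at or near 0. Among the groups shown, Phgdh was highest in NK cell-like nuclei (43.2 and 40.3 CPM), Mthfd2 in Ccr7+ DC-like nuclei (106.5 and 84.5 CPM) and Psat1 in preDC-like nuclei (39.4 and 25.9 CPM).

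The enzymes of serine synthesis differed in where they were highest. Phgdh, the first enzyme, was highest among the named classes in NK cell-like nuclei on both days, at 43.2 CPM (34.8 to 53.0) at D0 and 40.3 (32.4 to 49.6) at D5. It followed in pDC-like nuclei, at 26.2 (21.3 to 31.8) and 16.8 (12.9 to 21.5), and in cDC1-like nuclei, at 15.6 (12.1 to 19.8) and 11.8 (9.83 to 14.1). In cDC2-like nuclei as a whole it was at 5.41 (3.43 to 8.12) and 3.97 (3.16 to 4.94). The NK cell-like interval lay above that of the next class on both days, and the pDC-like interval lay above the cDC1-like one at D0 but overlapped it at D5. Within the cDC2-like nuclei the D5 levels of Phgdh were 3.96 in preDC-like, 3.02 in Clec10a+ and 5.41 in Sirpb1a-led nuclei, with overlapping intervals.

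Psph, the last enzyme of the pathway, was also highest among the named classes in NK cell-like nuclei, at 36.2 CPM (28.5 to 45.2) at D0 and 37.2 (29.6 to 46.1) at D5. The cDC1-like nuclei had 14.4 (11.0 to 18.5) and 14.9 (12.6 to 17.4), and cDC2-like nuclei 12.2 (9.14 to 16.1) and 15.8 (14.2 to 17.7). With cDC2-like nuclei taken by state, preDC-like nuclei came next after the NK cell-like ones on both days. Psph there was at 26.3 and 20.3 CPM, on 10 and 77 UMIs. It was at 9.49 and 13.7 CPM in Clec10a+ and 13.1 and 16.5 in Sirpb1a-led nuclei. The pDC-like nuclei went from 14.0 (10.5 to 18.3) at D0 to 6.04 (3.83 to 9.06) at D5. An unnamed cluster with markers of both T and NK cells, led by Cd3e and Klra7, resembled the NK cell-like nuclei in both genes, with Phgdh at 44.6 and 34.3 CPM and Psph at 36.5 on both days.

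Psat1, the middle enzyme, was ordered otherwise. Its highest class was preDC-like nuclei, for which it had been chosen, with 15 UMIs and 39.4 CPM (22.1 to 65.0) at D0 and 98 UMIs and 25.9 CPM (21.0 to 31.5) at D5. Among the named classes, with cDC2-like nuclei taken by state, next came cDC1-like nuclei, at 13.9 (10.6 to 17.9) and 18.7 (16.2 to 21.5), and NK cell-like nuclei, at 10.8 (6.85 to 16.2) and 17.0 (12.1 to 23.4). At D0 the preDC-like interval lay above the cDC1-like one, and at D5 the intervals overlapped. The pDC-like nuclei, in which Phgdh ranked second, had Psat1 at 10.1 (7.19 to 13.8) and 11.3 (8.17 to 15.2). In Ccr7+ DC-like nuclei Psat1 was at 2.96 and 6.34 CPM, on 2 and 19 UMIs.

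Of the mitochondrial enzymes, Shmt2 was highest among the named classes in NK cell-like nuclei, at 16.9 CPM (11.8 to 23.4) at D0 and 21.5 (15.9 to 28.5) at D5. Next among these was the cDC1-like class, at 13 (9.83 to 16.9) and 16.6 (14.2 to 19.2). These intervals overlapped. Mthfd2 was highest among the named classes in Ccr7+ DC-like nuclei, at 106.5 CPM (83.3 to 134) at D0 and 84.5 (74.4 to 95.6) at D5, against 50.2 (43.7 to 57.3) and 56.5 (52.1 to 61.3) in cDC1-like nuclei. The lowest named class for Mthfd2 was the NK cell-like one, at 28.2 (21.5 to 36.3) and 31.8 (24.9 to 40.1). The named class with most Mthfd2 was thus among those with least Shmt2, which stood at 4.44 and 4.34 CPM in Ccr7+ DC-like nuclei on 3 and 13 UMIs.

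Atf4 RNA was found in every named class and spanned a narrow range. At D0 it ran from 148 CPM (120 to 180) in Ccr7+ DC-like nuclei and 154 (142 to 167) in pDC-like nuclei to 216 (196 to 236) in NK cell-like nuclei and 223 (199 to 248) in Sirpb1a-led nuclei. At D5 it ran from 115 (105 to 126) in pDC-like to 170 (157 to 184) in preDC-like nuclei. The Atf4 targets Asns, Chac1 and Trib3 were at or near 0 throughout: no class had more than 8, 5 and 10 UMIs of them, all of these in cDC1-like nuclei at D5, and none reached 20 UMIs in any comparison. In preDC-like nuclei Asns and Chac1 had 0 UMIs on both days, which allows a level of up to 7.89 CPM at D0 and 0.792 CPM at D5 (3 counts).

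Free RNA was measured in barcodes of 10 to 100 UMIs, since it can put UMIs into nuclei that do not express a gene. There Psat1 stood at 9.24 CPM at D0 (4 UMIs) and 11.3 at D5 (34 UMIs), Psph at 48.5 and 26.5, Mthfd2 at 53.1 and 46.7, and Atf4 at 233 and 193. Phgdh was at 34.7 CPM at D0 and 11.6 at D5, and Shmt2 at 23.1 and 13.3. At D5 the interval of Psat1 in preDC-like nuclei lay above that of free RNA (7.80 to 15.7), while at D0 they overlapped. The cDC2-like levels of Phgdh, Psph, Shmt2, Mthfd2 and Atf4 were below those of free RNA on both days. For Atf4 this held for the highest named class too, at 223 CPM at D0 and 170 at D5. How much of each class's level came from free RNA was not tested.

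The study set preDCs beside Clec10a+ cDC2, and the members were compared in the same direction, first with all other cDC2-like nuclei. These leave out an unnamed cluster led by Il1r2 and Dab2 (365 and 2976 nuclei), which had 4 cDC2 markers raised beside the biliary marker Epcam and in which Psat1 was at 15.3 CPM (7.64 to 27.4) at D0 and 10.3 (8.26 to 12.7) at D5, Phgdh at 11.1 and 4.51 and Shmt2 at 15.3 and 9.59. At D5, Psat1 was at 25.9 CPM in preDC-like nuclei and 7.65 (6.38 to 9.10) in the others, a log2 ratio of 1.76 (1.36 to 2.15) or 3.38-fold. At D0, in clusters that both libraries share, it was at 39.4 against 9.05 CPM (6.30 to 12.6), a log2 ratio of 2.12 (1.14 to 3.03) or 4.36-fold on 15 and 35 UMIs. These are the levels for which the set was chosen, and they are a description only. The share of nuclei with at least 1 Psat1 UMI was 6.22% (5.01 to 7.60, Clopper-Pearson) of preDC-like nuclei at D5 against 2.18% (1.81 to 2.59) of the others. At D0 these shares were 7.11% (4.03 to 11.5) and 1.84% (1.28 to 2.56). With every nucleus thinned to 1000 UMIs they were 2.75% against 0.850% at D5 and 4.74% against 0.811% at D0, and the median depth of preDC-like nuclei was the lower one, at 2437 UMIs against 2702 at D5 and 1713 against 1907 at D0. No class was fixed as one that lacks the gene, and the levels in free RNA above are given in its place.

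The other members had smaller ratios than Psat1, which is in part fixed by the choice of Psat1 for its level here. No difference between members was tested. At D5, Psat1 was the 1 member called of the 6 with enough UMIs, and of all 12419 genes tested 19.4% were called higher and 13% lower, so a count of 1 in 6 is no result about the set. Phgdh was at 3.96 against 3.98 CPM, a log2 ratio of -0.01 (-0.92 to 0.82). Psph was at 20.3 against 14.8 CPM, 0.46 (0.07 to 0.83), and Shmt2 at 13.5 against 9.64 CPM, 0.48 (0.00 to 0.94). These values are read against a median of 0.16 over all genes tested, and with TMM scaling (the trimmed mean of M values of edgeR, in place of total UMIs), which lowers every preDC-like ratio at D5 by 0.23, Psph stood at 0.22 and Shmt2 at 0.25. Atf4 was at 170 against 140 CPM, 0.28 (0.16 to 0.41), and 0.05 with TMM scaling, and Mthfd2 was at 49.3 against 44.7 CPM, 0.14 (-0.10 to 0.38), which turned to -0.09.

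At D0, 3 of 6 members were called higher, Psat1, Phgdh and Psph, the enzymes of serine synthesis, against 29.4% of all genes tested, with 0 called lower against 19.9%. Psat1 is the gene by which the set was chosen, so this count is no result about the set either. Phgdh was at 13.1 against 4.65 CPM, a log2 ratio of 1.5 (-0.29 to 2.98) on 5 and 18 UMIs. Psph was at 26.3 against 10.9 CPM, 1.28 (0.12 to 2.29) on 10 and 42 UMIs. The Phgdh interval includes 0, and neither enzyme was called at D5. Free RNA at D0 held more of both, Phgdh at 34.7 and Psph at 48.5 CPM, and its part in these levels was not tested. Which members were called at D0 also changed with the nuclei used: Psat1 and Shmt2 at a minimum of 2000 UMIs per nucleus, Psat1 and Psph after thinning, and Psat1, Psph and Shmt2 at a doublet score below 0.1, with Phgdh under 20 UMIs in each of these. Shmt2, Mthfd2 and Atf4 had log2 ratios of 0.30, 0.30 and 0.08, each of which was below 0 with TMM scaling, at -0.05, -0.05 and -0.27.

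Against the Clec10a+ nuclei alone the picture of Psat1 was the same with the main settings. Its log2 ratio was 2.10 (1.62 to 2.59) at D5, 25.9 against 6.03 CPM, and 2.26 (1.19 to 3.29) at D0, 39.4 against 8.25 CPM. At D5 it was again the 1 member of 6 called, with 30% of all genes called higher and 10.4% lower. At D0, Psat1 and Psph, 2 of the 5 members tested, were called higher, with 36.2% of all genes called higher and 16.4% lower. At D0 Psat1 had no call at a minimum of 2000 UMIs, where 0 of 3 members tested were called. After thinning Mthfd2 alone was called, of 2 members tested, and without cell cycle UMIs Atf4, the 1 member tested. Psat1 fell under 20 UMIs in both of these settings, so its ratio was not read there. At D5 Psat1 kept its call. Psph joined it at a minimum of 2000 UMIs, after thinning and at a doublet score below 0.1, and Mthfd2 without cell cycle UMIs. Psph stood at 0.57 (0.15 to 0.98) at D5 and 1.47 (0.23 to 2.60) at D0.

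**Figure D2:**
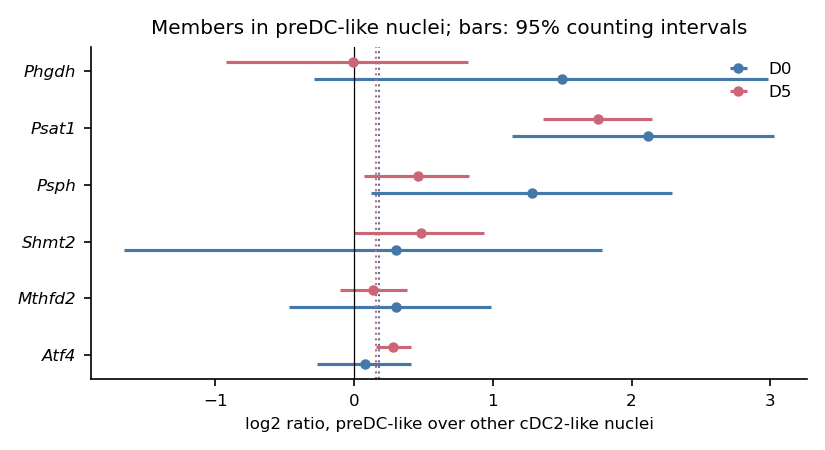
Log2 ratios of member CPM in preDC-like over other cDC2-like nuclei at D0 (blue) and D5 (red), with exact conditional binomial 95% intervals; the dotted lines mark the median of all genes tested on each day (0.18 and 0.16). Psat1 lies farthest to the right on both days (2.12 and 1.76), the D0 values of Phgdh (1.5) and Psph (1.28) have wide bars, and Mthfd2 and Atf4 lie near the dotted lines.

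Some markers of other cell types moved with Psat1. All 10 genes of the pDC list were higher in preDC-like than in other cDC2-like nuclei on both days, and their summed level was 6811 CPM at D0 and 4134 at D5, against 719 and 590 in the others and 12960 and 12340 in pDC-like nuclei. Tcf4 and Siglech are on both the pDC and the preDC list, and Tcf4 alone made 5089 CPM of the sum at D0 and 3038 at D5. Psat1 itself was at 10.1 and 11.3 CPM in pDC-like nuclei, below its preDC-like levels on both days. The summed cDC2 list was at 1204 and 1357 CPM in preDC-like nuclei and 2711 and 2236 in the others. Its preDC-like sums lay below those of free RNA, 1296 and 1557 CPM, and above those of pDC-like nuclei, 1013 and 1107. The pDC list stood at 2174 and 924 CPM in free RNA. Classical monocyte markers summed to 1267 CPM at D0 and 979 at D5, against 440 and 501 in the others, with 2 and 5 of 6 genes higher and Chil3 and Vcan at 0 at D0. Ly6c2, on both this list and the preDC list, made 662 and 374 CPM of these sums, so that part of their rise is fixed by the naming. Endothelial markers summed to 281 and 145 CPM against 69.3 and 57.8, with 2 and 3 of 6 genes higher and Stab2 and Ptprb at 0 at D0. The cDC1 list summed to 1756 CPM at D0 and 787 at D5, against 1265 and 800 in the others and 2116 and 1170 in free RNA. Of its 10 genes 3 and 2 were higher, among them Irf8 at 1007 and 283 CPM against 168 and 101. Clec9a was at 263 and 127 against 56.9 and 19.6. The part of these cell types in the level of Psat1 was not tested. The median doublet score of preDC-like nuclei was 0.0474 at D0 and 0.0693 at D5, against 0.0584 and 0.0889 in Clec10a+ nuclei. A score of 0.1 or more was found in 20.4% and 29.7% of preDC-like nuclei and in 17.4% and 42.3% of Clec10a+ nuclei. Among nuclei with a score below 0.1, a limit chosen after seeing the data, the log2 ratio of Psat1 was 2.41 at D0 and 1.71 at D5.

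Several members serve DNA synthesis, so cell cycle RNA was measured beside them. The summed level of 43 cell cycle genes was 1354 CPM at D0 and 1007 at D5 in preDC-like nuclei and 2153 and 1496 in the other cDC2-like nuclei. The part of the cell cycle in the members' levels was not tested. The highest named class was cDC1-like, at 3388 and 2549 CPM. In the nuclei with no cell cycle UMI, 202 preDC-like and 671 others at D5, Psat1 was at 36.4 CPM on 16 UMIs and 9.64 CPM on 15 UMIs. At D0 this left 4 Psat1 UMIs in 42 preDC-like nuclei and 1 in 291 others.

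Between D0 and D5, the number of members past 1.5-fold ranged from 0 to 3 over the classes and states. In the cDC1-like and cDC2-like nuclei 0 of 6 members were called in either direction. The shares of all genes called higher and lower were 3.95% and 22.8% in cDC1-like and 5.69% and 19.1% in cDC2-like nuclei. In cDC1-like nuclei Psat1 had a log2 ratio of 0.42 (0.00 to 0.87), Shmt2 0.35 (-0.09 to 0.81) and Phgdh -0.40 (-0.84 to 0.05). The low bound of the Psat1 interval rounds to 0. In cDC2-like nuclei Psph had 0.37 (-0.05 to 0.82) and Psat1 -0.09 (-0.54 to 0.38), the latter at 0.16 with TMM scaling. Some of these counts depend on the scaling: with TMM, Psat1 (0.75) and Shmt2 (0.68) in cDC1-like and Psph (0.62) in cDC2-like nuclei were past 1.5-fold, beside 13.5% and 13.9% of all genes higher. The cDC2-like count also changed with the nuclei used. Phgdh was called lower at a minimum of 2000 UMIs. Without cell cycle UMIs Psat1 and Psph were called higher and Shmt2 lower.

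Atf4 RNA was lower at D5 on this scale in 4 large classes, at log2 ratios of -0.48 (-0.59 to -0.37) in cDC2-like, -0.27 (-0.39 to -0.14) in cDC1-like, -0.42 (-0.60 to -0.24) in pDC-like and -0.48 (-0.69 to -0.28) in NK cell-like nuclei, while in Ccr7+ DC-like nuclei it was at -0.06 (-0.38 to 0.27). The medians of all genes tested were below 0 too, -0.24 in cDC1-like and -0.14 in cDC2-like nuclei, and TMM scaling, which raises the D5 over D0 ratios by 0.15 to 0.33, turned Atf4 to 0.06 in cDC1-like and 0.10 in Ccr7+ DC-like nuclei. With it Atf4 stayed below 0 in the cDC2-like (-0.23), pDC-like (-0.27) and NK cell-like nuclei (-0.29). In free RNA Atf4 went from 233 CPM (190.1 to 283.5) at D0 to 193 (177.7 to 209.4) at D5, with overlapping intervals. The part of free RNA in the Atf4 differences was not tested. The Sirpb1a-led cDC2-like nuclei had the largest Atf4 difference, 129 against 223 CPM, a log2 ratio of -0.78 (-0.97 to -0.59), and -0.53 with TMM scaling, which loses its call. It was the 1 member of 6 called there, where 6.85% of all genes were called higher and 18.3% lower. Which members were called there changed with the nuclei used. At a minimum of 2000 UMIs per nucleus Phgdh, Psat1 and Atf4 were called lower and Psph higher. At a doublet score below 0.1 Atf4 was called lower and Phgdh higher.

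In the preDC-like nuclei, Phgdh and Psat1 were called lower at D5, 2 of 6 members, against 22.1% of all genes lower and 14.2% higher. Phgdh had a log2 ratio of -1.73 (-3.26 to 0.08) on 15 and 5 UMIs and Psat1 -0.61 (-1.40 to 0.28) on 98 and 15 UMIs, and both intervals include 0. With TMM scaling Psat1 stood at -0.32 and with DESeq2 size factors at -0.33, so that its call is lost with either, while Phgdh stood at -1.44 with TMM. Shmt2, at 0.36 (-1.09 to 2.29) on 51 and 4 UMIs, was at 0.64 with TMM and so past 1.5-fold higher, beside 24.7% of all genes. The direction of Phgdh, Psat1 and Shmt2 is not settled at this depth. In Clec10a+ nuclei 0 of 6 members were called, with 8.2% of all genes higher and 18.7% lower, but 2 were called higher with TMM scaling, Psph (0.77) and Shmt2 (0.70), beside 17.6% of all genes. There Psat1 and Phgdh both had -0.45, and Psph had 0.53 (-0.12 to 1.23). The Clec10a+ count also changed with the nuclei used. Psph and Shmt2 were called higher without doublet removal and at a doublet score below 0.1, and Psat1 was called lower at a minimum of 2000 UMIs.

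In the pDC-like nuclei 1 of 6 members was called higher, against 6.12% of all genes, and 2 of 6 lower, against 12.0%. Psph was at 14.0 CPM at D0 and 6.04 at D5, a log2 ratio of -1.21 (-1.98 to -0.48), on 54 and 23 UMIs, and Phgdh at 26.2 and 16.8 CPM, -0.64 (-1.11 to -0.17). Shmt2 was at 4.92 and 9.98 CPM, 1.02 (0.19 to 1.90), on 19 and 38 UMIs. None of these intervals includes 0, and with TMM scaling the values were -1.06, -0.49 and 1.17, so that the call of Phgdh is lost. At a minimum of 2000 UMIs per nucleus, and in nuclei without cell cycle UMIs, 0 members were called: Psph and Shmt2 then fell under 20 UMIs over both days, and Phgdh stood at -0.27 and -0.57. In free RNA, Psph went from 48.5 CPM at D0 to 26.5 at D5 with overlapping intervals, Phgdh from 34.7 (19.4 to 57.2) to 11.6 (8.07 to 16.1) and Shmt2 from 23.1 (11.1 to 42.5) to 13.3 (9.46 to 18.0). The pDC-like levels of Psph and Shmt2 lay below those of free RNA on both days, and that of Phgdh at D0. The part of free RNA in these differences was not tested. Psat1, the middle enzyme, was at 10.1 and 11.3 CPM, with a log2 ratio of 0.16 (-0.50 to 0.82).

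In NK cell-like nuclei 1 of 6 members was called higher, Psat1 at 17.0 against 10.8 CPM with a log2 ratio of 0.66 (-0.13 to 1.47), beside 6.15% of all genes higher and 16.2% lower. Its value was under 1.5-fold without doublet removal (0.56), at a minimum of 2000 UMIs (0.27), after thinning (0.26) and at a doublet score below 0.1 (0.52), and nuclei without cell cycle UMIs held too few UMIs of it. In Ccr7+ DC-like nuclei 1 of 4 members was called higher, again Psat1, at 1.10 (-0.95 to 4.25) on 19 and 2 UMIs, beside 13.8% higher and 15.9% lower. Psat1 fell under 20 UMIs there, and so could not be called, at a minimum of 2000 UMIs, after thinning, without cell cycle UMIs and at a doublet score below 0.1. Psph was called higher there at a minimum of 2000 UMIs, and Mthfd2 lower after thinning and without cell cycle UMIs. The Psat1 intervals of both classes include 0. In nonclassical monocyte-like nuclei only Mthfd2 (0.00) and Atf4 (-0.40) had enough UMIs and 0 of 2 were called, beside 13.6% and 19.4%. Over the 3 cDC2-like states and the cDC1-like, Ccr7+ DC-like, pDC-like and NK cell-like nuclei, 7 groups that share no nuclei, 3 pairs of a member and a group were called higher and 5 lower, beside 8.2% and 18.1% of the pairs of all genes. With TMM scaling 8 were called higher and 2 lower, beside 16.0% and 9.97% of all pairs, so the balance of directions between the days depends on the scaling.

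**Figure D3:**
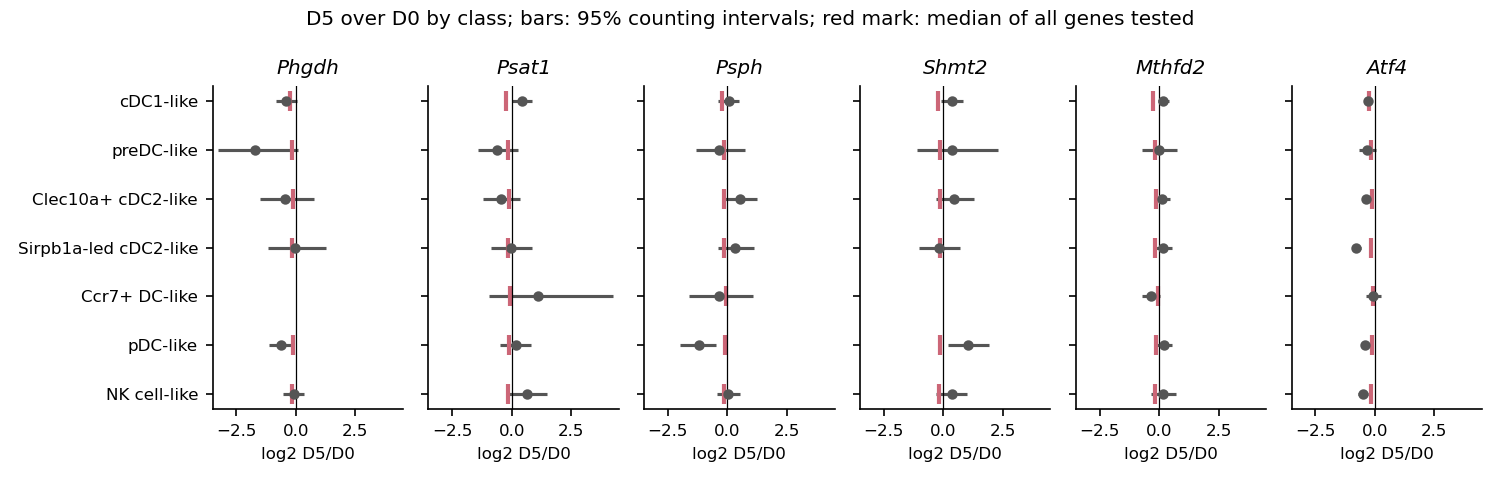
Log2 ratios of member CPM at D5 over D0 by class or state, 1 panel for each of 6 members, with exact conditional binomial 95% intervals as bars and the median of all genes tested as a red mark; values under 20 UMIs in all are left out. In pDC-like nuclei Psph (-1.21) and Phgdh (-0.64) lie below 0 and Shmt2 (1.02) above, and Atf4 is lowest in Sirpb1a-led nuclei (-0.78).

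The chromatin layer gave a readout that took no part in naming the nuclei. Peak counts were turned into fragments, and the fragments of all shared regions within 10 kb of the start site of a gene were summed, in CPM of all shared regions. Around Psat1 these were 2 regions. In preDC-like nuclei they held 50.6 CPM (44.6 to 57.1) at D5 against 35.7 (33.0 to 38.6) in the other cDC2-like nuclei, a log2 ratio of 0.50 (0.29 to 0.71). At D0 they held 45.1 CPM (32.3 to 61.1) against 36.1 (31.8 to 40.7), a log2 ratio of 0.32 (-0.19 to 0.80). Neither passed 1.5-fold, and the shift of all regions with TMM scaling was -0.12 at D5 and -0.28 at D0.

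The 2 regions were also taken apart, with no test of the difference between them. The region chr19:15923137-15923948 (mm10), 673 bases from the nearest Psat1 start site of the annotation in the files and inside the gene, held 14.4 CPM in preDC-like nuclei and 8.04 in the others at D5, a log2 ratio of 0.84 (0.41 to 1.25). At D0 it held 19.8 against 7.90 CPM, 1.32 (0.47 to 2.11), on 18 and 57.5 fragments. The region over the start sites, chr19:15924524-15925436, in which both printed Psat1 windows lie, held 36.2 against 27.7 CPM at D5, 0.39 (0.14 to 0.63), and 25.3 against 28.2 CPM at D0, -0.16 (-0.85 to 0.47). The intervals of both regions overlapped at D5.

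The regions of the other members were summed in the same way. At D5 the log2 ratio of preDC-like over other nuclei was 0.09 for Phgdh and Psph, 0.11 for Shmt2, 0.00 for Mthfd2 and -0.11 for Atf4, and each of these intervals includes 0. Chac1 was less accessible in preDC-like nuclei, at 33.1 against 44.1 CPM, -0.41 (-0.66 to -0.17), although its RNA was at 0 there. Asns, at 0.772 against 1.22 CPM on 4 and 21.5 fragments, was the 1 member of 9 called lower, with 13.2% of all genes called higher and 5.49% lower. At D0, where 13.4% were called higher and 12.6% lower, 0 of the 8 members with enough fragments were called. There Atf4 had -0.46 (-0.78 to -0.16), and Chac1 (-1.21 to 0.03) and Trib3 (-1.41 to 0.19) both had -0.56, with intervals that include 0. That count depends on the scaling: with TMM 4 of 8 members were past 1.5-fold lower, Atf4 (-0.74), Phgdh (-0.66), Chac1 and Trib3 (both -0.84), beside 28.5% of all genes lower with that scaling, and the same 4 members with DESeq2 size factors. With a window of 2 kb in place of 10 kb the D0 value was -0.83 for Atf4 and 0.84 for Shmt2, and that of Chac1 turned to 0.37. Windows can hold the start sites of other genes: Cct6a lies near Psph, Ndufa4l2 near Shmt2, Mob1a near Mthfd2, Rps19bp1 near Atf4 and Gm14164 near Trib3, and their regions were summed with those of the member.

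**Figure D4:**
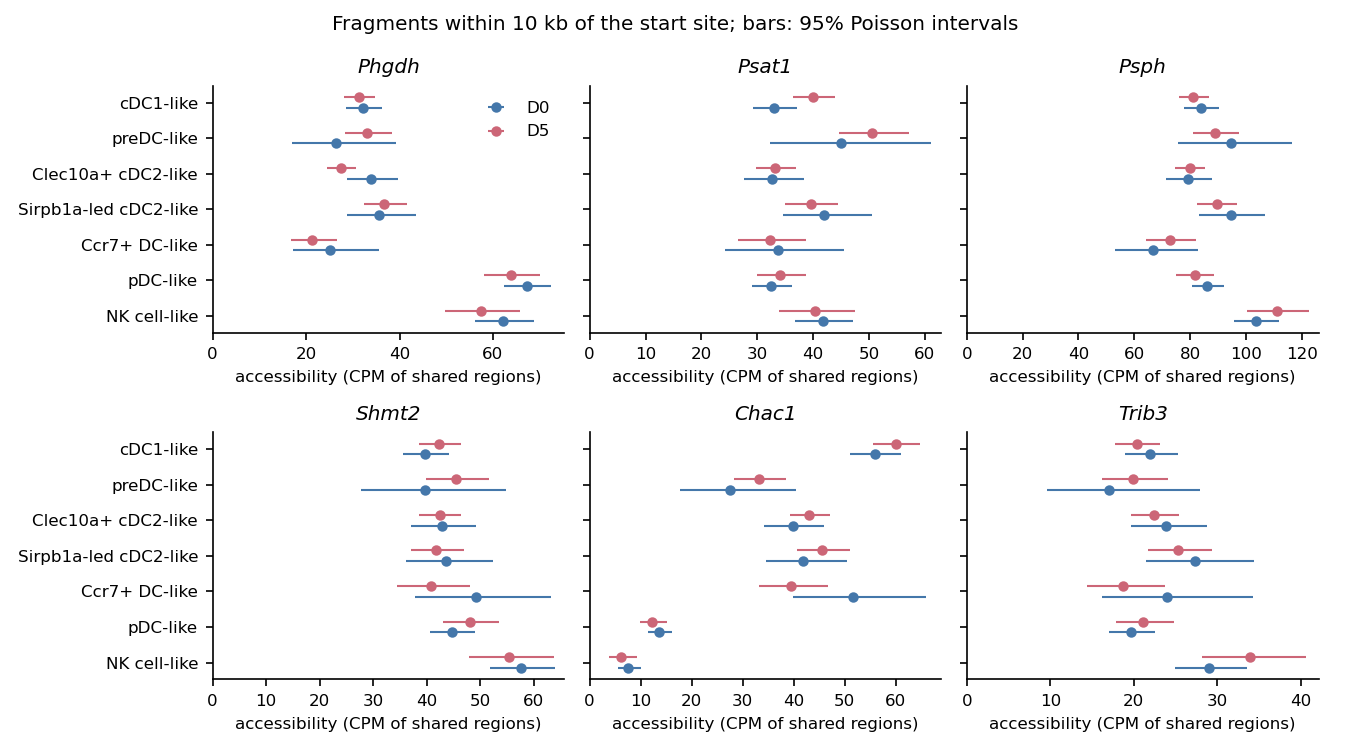
Accessibility of 6 members, as fragments within 10 kb of the start site in CPM of all shared regions (linear axis from 0), by class or state, with D0 in blue, D5 in red and bars for exact Poisson 95% intervals. Phgdh was most accessible in pDC-like (67.3 and 63.9 CPM) and NK cell-like nuclei (62.2 and 57.4 CPM), Psat1 in preDC-like nuclei (45.1 and 50.6 CPM) and Chac1 in cDC1-like nuclei (55.9 and 60.1 CPM).

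Across classes, Phgdh was most accessible in both classes with most of its RNA, though in the reverse order. Its regions held 67.3 CPM at D0 and 63.9 at D5 in pDC-like nuclei and 62.2 and 57.4 in NK cell-like nuclei, against 32.2 and 31.4 in cDC1-like nuclei. Psph, with the neighbouring Cct6a start site in its window, was most accessible in NK cell-like nuclei (104 and 111 CPM), the class with most Psph RNA. Chac1, whose RNA was at or near 0 in every class, held 55.9 and 60.1 CPM in cDC1-like nuclei, 13.6 and 12.3 in pDC-like nuclei and 7.61 and 6.10 in NK cell-like nuclei. Mthfd2 held between 132 and 156 CPM in every class, the Ccr7+ DC-like nuclei, which had most of its RNA, included. Asns had at most 2.28 CPM in any class.

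Between the days, accessibility was compared over regions found in both libraries, a filter that a change between the days would itself affect. Within 10 kb of the members' start sites 5 further peaks were found in 1 library only and were not counted. They lay near Atf4 (796 fragments in the called barcodes), Phgdh (223), Psph (139.5) and Psat1 (79) at D5 and near Chac1 (79) at D0. Over the shared regions few members were called. In cDC1-like nuclei 0 members were called, with 0.652% of all genes called higher and 5.76% lower. In pDC-like nuclei, the class in which Psph, Phgdh and Shmt2 RNA differed, 0 were called as well, beside 0.556% and 5.1%, and in NK cell-like nuclei 0 beside 2.33% and 6.33%. The Atf4 regions in pDC-like nuclei went from 118 CPM (112 to 125) to 138 (130 to 147), a log2 ratio of 0.22 (0.10 to 0.34). In cDC2-like nuclei 1 member was called higher, Asns at 0.74 on 25.5 and 5.5 fragments, beside 1.27% higher and 7.09% lower.

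The members sit in a wider response, for which 65 genes were listed in 6 groups, 64 of them in the files. In preDC-like over other cDC2-like nuclei at D5, 51 had enough UMIs, of which 8 (15.7%) were called higher and 11 (21.6%) lower, beside 19.4% and 13% of all genes, with a median log2 ratio of 0.22 against 0.16 over all genes. With TMM scaling the counts were 4 higher and 13 lower, beside 11.1% and 18.3%. The highest were Gpt2, a mitochondrial alanine aminotransferase, at 1.92 (0.73 to 3.10), Yars, the tyrosyl-tRNA synthetase, at 0.87 (0.58 to 1.16), and Slc7a5, a carrier of large neutral amino acids, at 0.86 (0.62 to 1.09). The lowest were the stress cytokine Gdf15, at 1 against 40 UMIs and a log2 ratio of -3.19 (-8.53 to -0.63), Slc7a11, the cystine carrier, at -2.59 (-3.61 to -1.73), and Jdp2, a repressor of the AP-1 family, at -1.39 (-1.67 to -1.11). Genes that Atf4 is known to activate were thus found at both ends.

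The groups of that list are given by their counts, and no difference between groups was tested. Of 11 aminoacyl-tRNA synthetases 3 were called higher and 0 lower at D5, where 19.4% of all genes were called higher, and 7 higher and 0 lower at D0, where 29.4% were. The D0 count depends on the scaling: TMM shifts every D0 ratio by -0.35, and 15.4% of all genes were then called higher. Gars (0.77), Nars (0.68), Iars (0.60), Cars (0.67) and Lars (0.86) lose their D0 call with it. Sars (1.04) and Yars (1.44) keep theirs. Xpot, a tRNA exportin listed in the same group, was called on neither day, at 0.34 (-0.02 to 0.68) at D5 and 0.02 (-1.24 to 1.07) at D0. Of the other stress response targets 0 of 13 were called higher and 6 lower at D5, and 1 of 11 higher and 5 lower at D0, where 19.9% of all genes were called lower, against 13% at D5. Of the other folate and one-carbon genes 0 of 9 were called higher and 3 lower at D5 (median log2 ratio -0.36). At D0 it was 2 of 7 higher and 4 lower (median -0.68). Of the amino acid transporters 1 of 7 was higher and 1 lower on both days. Of the other amino acid enzymes 2 of 5 were higher and 1 lower at D5, and 2 of 4 and 1 at D0. Of the eIF2 alpha kinases and subunit 2 of 5 were higher on both days, with 0 lower at D5 and 1 at D0. Slc7a11 and Jdp2 were lower at D0 too, at -2.58 (-7.91 to -0.05) on 1 and 61 UMIs and -2.56 (-3.69 to -1.62), and so was Atf3, a stress-induced repressor, at 247 against 898 CPM or -1.86 (-2.17 to -1.57). The highest at D0 were Eif2ak3, the eIF2 alpha kinase of the endoplasmic reticulum, at 1.66 (1.16 to 2.13), Yars at 1.44 (0.72 to 2.10) and Eif2ak1, the haem-regulated kinase, at 1.18 (0.49 to 1.82). In all 46 genes of the list were tested at D0, 15 called higher and 12 lower, with a median of 0.04 against 0.18 over all genes.

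**Figure D5:**
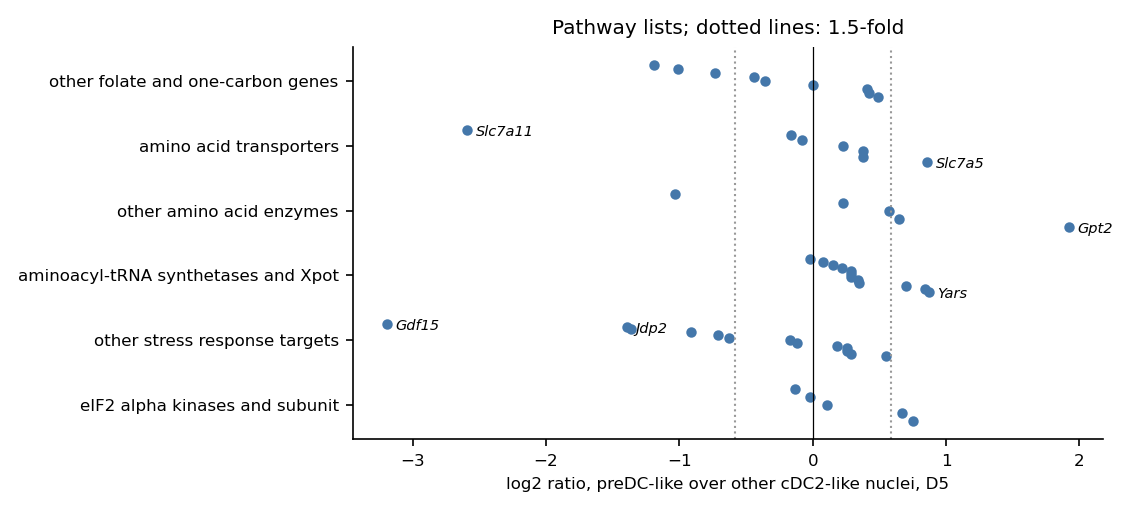
Log2 ratios of the 51 tested pathway genes in preDC-like over other cDC2-like nuclei at D5, 1 point a gene, by group of the list; the dotted lines mark 1.5-fold and the genes named in the text are labelled. The 11 aminoacyl-tRNA synthetases (median 0.29), plotted in 1 row with the tRNA exportin Xpot (0.34), lie mostly above 0, and 6 of 13 other stress response targets lie left of the lower line (median -0.17).

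Between the days the counts of the list differed by class. In preDC-like nuclei 5 of 45 genes were called higher and 9 lower, beside 14.2% and 22.1% of all genes. In cDC2-like nuclei 2 of 51 genes were called higher and 8 lower, beside 5.69% and 19.1% of all genes, and 8 and 4 with TMM scaling, beside 13.9% and 11.7%. Nupr1, a stress-induced chromatin protein, was higher at D5 in cDC2-like nuclei, at 70.6 against 31.1 CPM or 1.18 (0.93 to 1.45), and in pDC-like nuclei, at 13.7 against 2.33 CPM or 2.55 (1.52 to 3.76). It was also higher in cDC1-like (1.27), NK cell-like (1.74) and preDC-like nuclei (2.15), while it was at 0.73 (-0.28 to 1.92) in Ccr7+ DC-like and -0.47 (-1.24 to 0.32) in nonclassical monocyte-like nuclei, with intervals that include 0. Of the other cDC2-like states, Clec10a+ nuclei had Nupr1 at 1.27 (0.97 to 1.59). The Sirpb1a-led nuclei had it at 0.43 (-0.14 to 1.05), which is not called. Atf5, a relative of Atf4, was at 1.68 (0.50 to 3.16) in cDC2-like and 2.22 (0.55 to 4.57) in cDC1-like nuclei, on 6 and 3 UMIs at D0. Got1, the cytosolic aspartate aminotransferase, was lower at D5 in cDC2-like nuclei, at 78.1 against 146 CPM or -0.90 (-1.04 to -0.77). In Ccr7+ DC-like nuclei 11 of 46 genes, or 23.9%, were called higher and 2, or 4.35%, lower, beside 13.8% and 15.9% of all genes. These shares depend on the scaling: TMM shifts every ratio there by 0.17, and 20.6% of all genes were then called higher and 10.6% lower. A count of the list with TMM is not given here. The highest in Ccr7+ DC-like nuclei were Gcsh, a subunit of the glycine cleavage system, at 2.10 (0.48 to 4.42) on 57 and 3 UMIs, and Ddit4, an inhibitor of mTORC1, at 1.35 (0.58 to 2.22).

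Likeness to Psat1 was measured over 17 groups, each a class or state on 1 day, as Pearson's r of log2(CPM + 1) among 12059 genes. The 5 genes most like it were Camsap1 (r = 0.93), Lyrm4 (0.91), Ddx19a (0.91), Wdr77 (0.90) and Ccdc32 (0.90). Camsap1 binds microtubule minus ends, Lyrm4 takes part in iron-sulfur cluster assembly, Ddx19a is an RNA helicase and Wdr77 is a partner of the arginine methyltransferase Prmt5. Of the members, Psph had an r with Psat1 of 0.77, Phgdh 0.65, Shmt2 0.60, Atf4 0.04 and Mthfd2 -0.19. The groups share libraries, depth and free RNA, and how far the preDC-like groups weigh in these values was not tested. The values are descriptions only.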

How the data were processed

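RNA and open chromatin of the same nuclei were measured in 4 samples, 2 layers of 1 library per day. The authors made the files with Cell Ranger ARC 2.0.2 on mm10, per the submitters' processing notes, and deposited raw counts per gene and per peak and barcode. The headers of the joint matrices name that version and those of the RNA matrices Cell Ranger 6.0.2, but the gene counts of all called barcodes were identical in both. Whether intronic reads were counted is not given in the sources used here. Peak counts, mostly even, were divided by 2 to give fragments. The RNA and joint matrices at D5 were joined by identical gene counts. Barcodes under 1000 UMIs or over 10% mitochondrial UMIs, and those with a Scrublet score of 0.2 or more (23.1% and 25.4%), were removed. Nuclei of both libraries were clustered with scanpy 1.11.5 (2000 variable genes, 30 components, Leiden resolution 1). The members, 64 pathway genes and 43 cell cycle genes took no part. The thresholds for naming clusters were set with the clusters in view.

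Counts were summed by class and day and divided by the group's total. Peaks of both libraries that overlapped by at least 1 base formed the shared regions. Scaling factors came from edgeR 4.0.16 and DESeq2 1.42.0, and scipy 1.17.1 gave the intervals; no count model was fitted. The calculation of the intervals and ratios was tested on simulated counts. The members and lists were chosen with earlier results of these data known. All members were named. Of the pathway list, at most 3 highest and 3 lowest per comparison qualified, past 1.5-fold with an interval that leaves out 0, and the 5 genes most like Psat1 were taken among genes with at least 100 UMIs. Alternatives were another scaling, no doublet removal, a minimum of 2000 UMIs, thinning to 1000 UMIs, nuclei without cell cycle UMIs, no low-count filter, and for chromatin another window (2 kb), overlap (50%) or fragment minimum (500).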

Additional observations from a re-analysis of the deposited data

Results flagged for a closer look

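Psph, the last enzyme of serine synthesis, was lower at D5 in pDC-like nuclei, while in 4 further classes or states its value was above 0 with an interval that includes 0. Its log2 ratio of D5 over D0 was -1.21 in pDC-like nuclei, against 0.05 in cDC1-like, 0.53 in Clec10a+ cDC2-like, 0.33 in Sirpb1a-led cDC2-like and 0.04 in NK cell-like nuclei. It was flagged because the sign of the pDC-like value is opposite to that of each of the other 4, with the intervals for pDC-like and cDC1-like nuclei, -1.98 to -0.48 and -0.39 to 0.50, apart. The difference between classes was not tested, since each class has 1 library a day. In preDC-like and Ccr7+ DC-like nuclei the value was -0.37, with intervals that include 0. The pDC-like value rests on 54 UMIs at D0 and 23 at D5, and Psph had too few UMIs there for a call at a minimum of 2000 UMIs per nucleus or in nuclei without cell cycle UMIs. Psph in free RNA went from 48.5 CPM at D0 to 26.5 at D5, above the pDC-like levels of 14.0 and 6.04 CPM, and its part in the value was not tested.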

How the results depend on the processing

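No paired analysis was possible because each day has 1 library, and for the same reason no replicate could be left out. Another scaling moved some counts. With TMM and with DESeq2 size factors, 9 pairs of a member and a class were called higher at D5 instead of 3 and 2 lower instead of 5 (cDC2-like nuclei counted as a whole and by state; 8 higher by state alone). The pathway list in preDC-like over other cDC2-like nuclei at D5 had 4 genes called higher instead of 8 with either. In cDC2-like nuclei at D5 over D0 it had 8 higher instead of 2 with either, and 4 (TMM) or 3 (DESeq2) lower instead of 8; the higher count was 6 at a minimum of 2000 UMIs and 4 after thinning. Thinning gave 2 members higher in preDC-like nuclei at D5 instead of 1, and 1 pair higher between days instead of 3. Nuclei without cell cycle UMIs gave 1 member higher at D0 instead of 3, and that member was Atf4, at 302 against 196 CPM, while Psat1, Phgdh and Psph fell under 20 UMIs. A doublet score limit of 0.1, added after seeing the data, gave 5 pairs higher and 3 lower. Of 433 alternative values for single members, 400 stayed within their interval and 33 moved, and no called value changed sign. Alternative values under 20 UMIs or fragments were left out of this count. Intervals of low counts are wide, so staying within them says little. The causes were not tested. Depth limits Asns, Chac1 and Trib3, and every preDC-like value at D0.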
